A study of Mus musculus with 29 samples.

Results

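Mitochondrial ribosomal proteins are encoded by nuclear genes whose mouse symbols start with Mrpl, for the large subunit, or Mrps, for the small subunit. The genes described here were the protein-coding genes of the counts table whose symbol was Mrpl or Mrps followed by a digit and whose mean over all libraries was at least 1 CPM (counts per 1000000 mapped reads). Of 48023 genes in the table, 83 had such a symbol, 78 of these were protein-coding and 75 reached the level. The gene just inside the level was Mrpl23 at 2.32 CPM and the one just outside it was Mrps36 at 0.939 CPM. Mrps36 is now known as a component of a dehydrogenase complex. The other 2 protein-coding genes left out, Mrpl53 at 0.0182 CPM and Mrps23 at 0.00472 CPM, were close to unread in every library. All 75 members passed the filter on low counts in every comparison.

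RNA of 29 samples of skeletal muscle from male mice aged 2 to 3 months was sequenced. The aim was to ask how loss of either catalytic subunit of phosphoinositide 3-kinase changes muscle in the fed and the fasted state. M-p110αKO mice had Pik3ca exon 1 removed and M-p110βKO mice had Pik3cb exon 2 removed by a Cre recombinase under the human skeletal actin promoter, which is active in muscle fibres and leaves the other cells of the tissue with the gene. The muscle was tibialis anterior according to the study's figure legends. Fasted mice had no food for 24 h. Controls, which the labels call WT, were the floxed mice of the same line, so every animal carried the floxed alleles of its line. The labels give C57BL/6J for all mice, while the methods describe the p110β-floxed line as less purely C57BL/6, so that line and strain background cannot be told apart. The p110α line gave 4 libraries of fed controls, 4 of fed M-p110αKO, 4 of fasted controls and 3 of fasted M-p110αKO. The p110β line gave 3 libraries of fed and 3 of fasted controls and 4 of M-p110βKO in either state. Nothing in the labels says how the animals were spread over litters, cages or library batches.

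A library held 5351935 to 11653239 reads assigned to genes. The summed level of 6 muscle fibre markers, among them Acta1 and Ckm, averaged 98826 to 122587 CPM in the 8 groups. Counts were summed over all exons of a gene, so they do not show whether the floxed exons were removed, and in fed muscle the mean of either targeted gene differed between knockout and controls by less than the SD of either group. Pik3ca stood at 126.7 ± 19.7 CPM in fed p110α controls (SD, n = 4) and at 136.2 ± 23.4 CPM in fed M-p110αKO (SD, n = 4). Pik3cb stood at 10.3 ± 0.364 CPM in fed p110β controls (SD, n = 3) and at 10.3 ± 0.996 CPM in fed M-p110βKO (SD, n = 4). In fasted muscle Pik3ca stood at 179.2 ± 8.47 CPM in p110α controls (SD, n = 4) and 167.6 ± 15.8 CPM in M-p110αKO (SD, n = 3). Fasted Pik3cb stood at 9.36 ± 0.794 CPM in p110β controls (SD, n = 3) and 9.66 ± 0.359 CPM in M-p110βKO (SD, n = 4). By other assays, the study reports less p110α mRNA and protein in M-p110αKO muscle and less p110β mRNA in M-p110βKO muscle. The marker sums of other cells of the tissue differed between some groups, and some of these differences are given beside the results. Sums also differed between genotypes. In fed p110β muscle, Schwann cell markers were 71.6 ± 18.9 CPM in controls and 31.9 ± 2.07 CPM in knockouts (SD). In fasted p110β muscle, fibroblast markers were 321.1 ± 3.51 and 211.3 ± 34.0 CPM. In fed p110α muscle, macrophage markers were 16.3 ± 2.69 and 27.0 ± 8.20 CPM. Muscle fibre markers there were 119165 ± 13730 CPM in controls and 99641 ± 6419 CPM in knockouts, without overlap, though 0 of 6 were called. In fed p110β muscle they were higher in knockouts, at 110350 ± 11056 and 122587 ± 5162 CPM, with overlap. Their part in the genotype comparisons was not tested. Every marker of these lists had reads in at least 1 library. The p110β fasted controls numbered 23 and 24 stood apart in 7 adipocyte markers, with summed levels of 387.1 and 423.8 CPM against 171.6 CPM in control 25 and at most 206.8 CPM in the other libraries. In tissue RNA, fewer cells of a type and less RNA per cell cannot be told apart.

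The mitochondrial ribosome translates the mRNAs of the mitochondrial genome, which encode core subunits of the respiratory chain and of ATP synthase. Its rRNAs are transcribed inside the mitochondrion, whereas all of its proteins are made in the cytosol and imported. Many of the proteins have a counterpart in bacterial ribosomes, and the others were added during the evolution of mitochondria. Muscle fibres depend on this machinery for oxidative capacity. The 75 members comprised 50 proteins of the large subunit, 30 with a bacterial counterpart and 20 specific to mitochondria, and 25 of the small subunit, 16 with a bacterial counterpart and 9 without. Mrps30 and Mrps18a carry small-subunit names but sit in the large subunit, and they were counted there.

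Genes of this family are known targets of nuclear factors that couple the nuclear genome to mitochondrial content, so promoter windows were searched for the core motifs of 3 of these. RefSeq windows of GRCm38.p6, from 250 bases before to 50 bases after a gene's start, were found for 66 of the 75 members. The letters CGCATGCG of the nuclear respiratory factor Nrf1 were present on either strand for 7 of 66 members (10.6%), against 2.07% of 27025 gene symbols with a window. The letters CCGGAAGT of the ETS family, which includes the GA-binding protein, were present for 12 members (18.2%) against 4.31% of all symbols. The letters AAGATGGC of YY1 were also present for 12 members (18.2%) against 3.19% of all symbols. No motif contains another. A match is a description of these letters and not evidence of binding. Stretches with the motif in capitals are shown for 4 of the 7 members that were lower in fasting in all 4 comparisons described further on, each 5′ to 3′ on the strand of the gene. Distances are counted from a RefSeq start, which can differ from the gene's start in the GENCODE annotation used for gene positions. The letters of Mrpl48, Mrpl51 and Mrpl18 lie before a RefSeq start but inside the gene as annotated in GENCODE.
Mrpl48 (ETS letters on the opposite strand, 35 bases before 1 of its RefSeq starts, minus strand, chr7:100583147-100583176): gggttttaaaaACTTCCGGaaccaagatgc
Mrpl51 (ETS letters 90 bases before the start, plus strand, chr6:125192099-125192128): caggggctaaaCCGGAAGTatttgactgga
Mrpl18 (ETS letters 240 bases before the start, minus strand, chr17:12916313-12916341): actgaaaacgCCGGAAGTagggggctgcg
Mrpl42 (YY1 letters 27 bases after the start, minus strand, chr10:95501904-95501933): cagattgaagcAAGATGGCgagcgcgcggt
None of the 3 sets of letters was found in the windows of Mrpl12 and Mrpl45, which were also lower in all 4 comparisons, and Mrpl13, the remaining member of the 7, had no window among the 66. Among members that fell with fasting in p110α controls, 6 of 26 with a window held the ETS letters, 6 held the YY1 letters and 1 held the Nrf1 letters, and among the 40 other members with a window each set of letters was held by 6.

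The members differed widely in level. Per kilobase of exon, with the 8 group means averaged, the median member stood at 7.24 CPM per kb. The highest levels were those of Mrps28 (39.4 CPM per kb), the counterpart of a bacterial small-subunit protein, Mrpl12 (31.5 CPM per kb), a protein of the large-subunit stalk, and Mrpl10 (28.1 CPM per kb), to which the stalk is attached. The lowest were Mrpl23 (0.477 CPM per kb), Mrps22 (1.74 CPM per kb) and Mrps35 (1.80 CPM per kb). The exon length used is that of all annotated transcripts together, so a gene with long rarely used exons reads low on this scale.

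**Figure D1:**
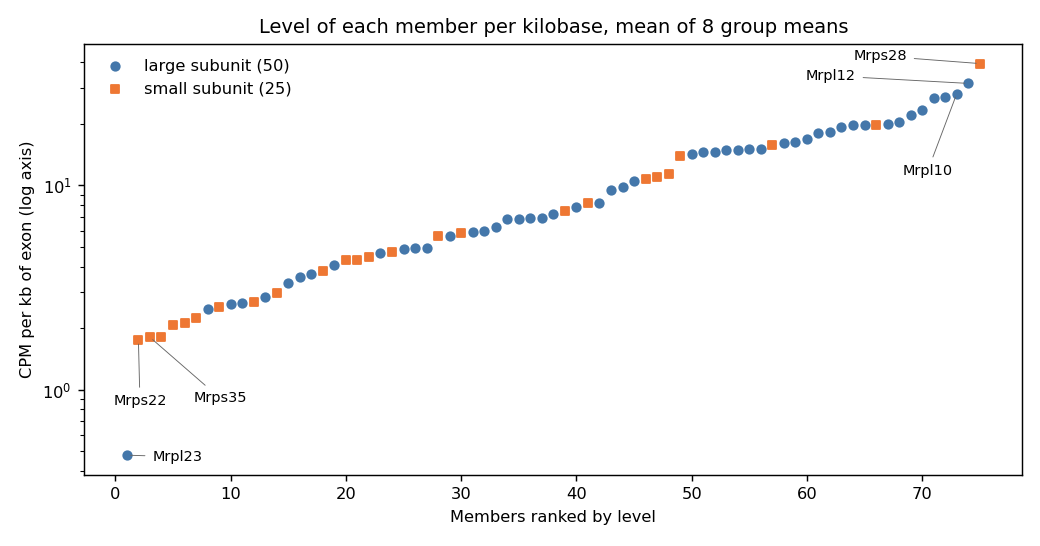
Each point is 1 of the 75 members, ranked along the horizontal axis by its level in CPM per kilobase of exon (mean of the 8 group means, log axis), with circles for the large and squares for the small subunit. Levels run from 0.477 for Mrpl23 to 39.4 for Mrps28.

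The 75 members lay on 17 chromosomes, with 10 on chromosome 11, and 43 shared no exon base with another gene. Those that shared over 30% of their exon bases with another gene numbered 5, and reads there may have been lost or assigned elsewhere. They were Mrps34 (77.8%), Mrps25 (69.8%, with Nr2c2), Mrpl19 (36.0%, with Gcfc2), Mrpl43 (33.4%, with Twnk) and Mrps18b (30.5%), and their values are uncertain to that extent.

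The summed level of the members was lower in fasted than in fed muscle of either line. In the p110α line, the sum averaged 1853 ± 159 CPM in fed controls (SD, n = 4) and 1500 ± 79.0 CPM in fasted controls (SD, n = 4). M-p110αKO mice of that line had 1975 ± 169 CPM when fed (SD, n = 4) and 1629 ± 92.3 CPM when fasted (SD, n = 3). The highest fasted library of the line, at 1721 CPM, was just above the lowest fed one at 1717 CPM. In the p110β line, the sum averaged 2222 ± 86.8 CPM in fed controls (SD, n = 3), 1824 ± 26.9 CPM in fasted controls (SD, n = 3), 2121 ± 134 CPM in fed M-p110βKO (SD, n = 4) and 1913 ± 140 CPM in fasted M-p110βKO (SD, n = 4). Fasted controls of the p110β line, at 1798 to 1852 CPM, were all below its fed controls, at 2124 to 2289 CPM, whereas fed and fasted M-p110βKO overlapped because fasted replicate 28 reached 2121 CPM. The ratio of small-subunit to large-subunit CPM averaged between 0.280 and 0.299 in the 8 groups, so both subunits shared these differences in level. Mitochondrially encoded genes took 7.98% to 11.5% of the reads on average in each group.

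**Figure D2:**
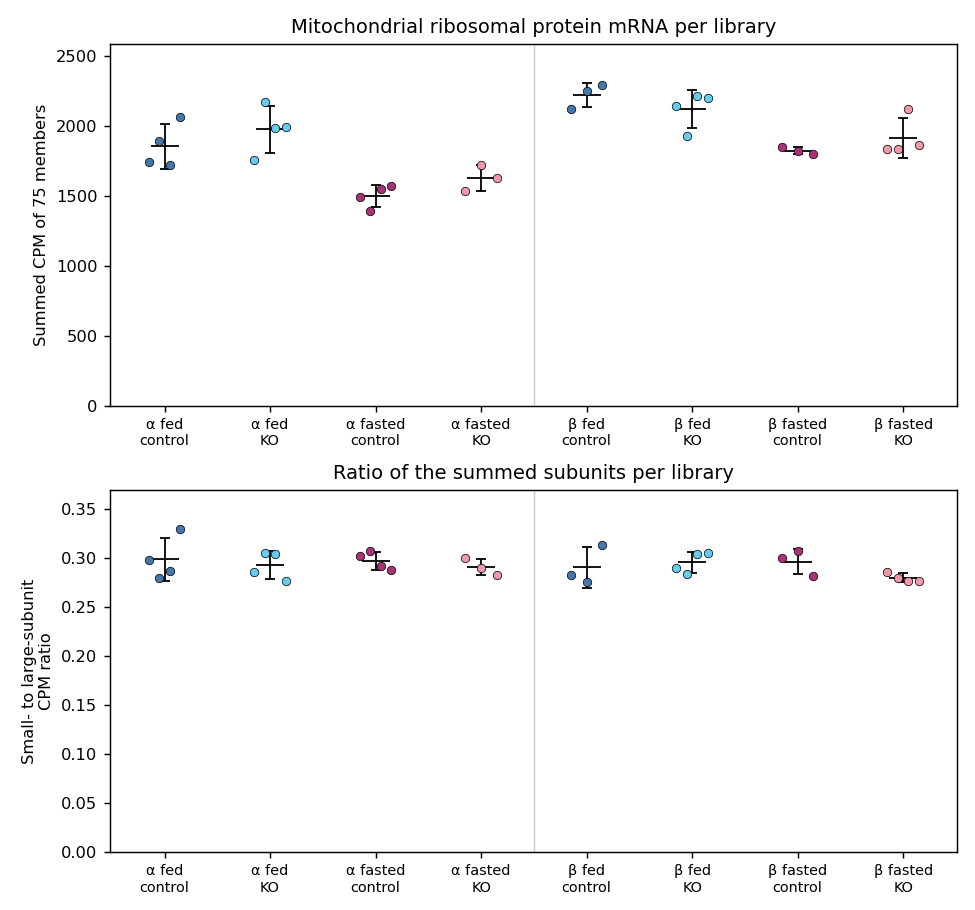
Points are libraries, grouped along the horizontal axis by line, feeding state and genotype, with the group mean and SD in black. The upper panel gives the summed CPM of the 75 members, where fasted controls of the p110α line sit between 1393 and 1571 and its fed controls between 1717 and 2062, and the lower panel gives the ratio of small-subunit to large-subunit CPM, with group means from 0.280 to 0.299.

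The first comparison asked how fasting changed the family in control muscle of the p110α line. Fasting lowered 31 of 75 members and raised none, at an adjusted p under 0.05 in the edgeR quasi-likelihood test, while 14.7% of all 12433 genes tested were called lower and 15.4% higher. The median log2 fold change of the members was -0.40, with 60 of 75 below 0, and the median of all genes tested was 0.00. At an unadjusted p under 0.05, 0 members were higher and 42 lower. DESeq2 called 34 members lower and limma-voom 29, and both called 0 higher. In the large subunit 20 of 50 members fell (median log2 fold change -0.36), and in the small subunit 11 of 25 (median -0.46). Of the members with a bacterial counterpart 19 of 46 fell (median -0.47), and of those specific to mitochondria 12 of 29 (median -0.36).

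The members with the largest falls in p110α controls came from both subunits. Mrpl12 (ENSMUSG00000039640, chr11:120484613-120489065, GRCm38 as all gene positions given) was read at 49.9, 56.9, 48.9 and 61.8 CPM in the 4 fed controls and at 26.8, 24.3, 31.1 and 30.1 CPM in the 4 fasted controls. The groups were well apart, and the log2 fold change was -0.96 ± 0.15 (SE; adjusted p = 0.000128, edgeR). Mrpl54, a large-subunit protein specific to mitochondria, was read at 10.8, 13.8, 9.74 and 19.0 CPM in fed and at 7.55, 7.60, 5.31 and 6.41 CPM in fasted controls (log2 fold change -1.01 ± 0.21, adjusted p = 0.00189, edgeR). Mrps26 of the small subunit went from 7.67, 8.49, 7.99 and 13.3 CPM to 4.55, 4.65, 5.18 and 5.82 CPM (log2 fold change -0.91 ± 0.23, adjusted p = 0.00722, edgeR). Neither of these genes overlapped between fed and fasted controls. Mrpl2, a protein near the peptidyl transferase centre of the large subunit, had the lowest p of the family, with 24.6, 29.4, 23.6 and 28.6 CPM in fed and 15.4, 16.6, 15.7 and 15.9 CPM in fasted controls (log2 fold change -0.75 ± 0.11, adjusted p = 8.58e-05, edgeR). Mrpl34, the member with the steepest fitted fall (log2 fold change -1.03 ± 0.32, adjusted p = 0.0215, edgeR), is a low gene whose groups overlapped, at 2.14 to 7.11 CPM in fed and 1.38 to 3.10 CPM in fasted controls. Its call was lost without fed control 4, fasted control 10 or fasted control 12, and after correcting for GC content and exon length (adjusted p = 0.0846, edgeR).

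The fasted p110α controls also had more macrophage marker signal, with a summed level of 6 genes of 42.2 ± 12.0 CPM against 16.3 ± 2.69 CPM in fed controls (SD, n = 4 each), and lower slow-fibre marker signal, at 31.1 ± 6.29 CPM against 53.3 ± 20.7 CPM. Summed adipocyte markers were 166.6 ± 8.39 CPM in fasted and 108.8 ± 15.5 CPM in fed controls, fibroblast markers 436.3 ± 41.7 CPM and 322.5 ± 88.1 CPM, and endothelial markers 302.5 ± 27.6 CPM and 259.4 ± 24.6 CPM (SD, n = 4 each). Of the tested markers, 2 of 6 for adipocytes, 2 of 5 for macrophages, 4 of 8 for fibroblasts and 3 of 6 for endothelium were called higher. Those called lower were 4 of 6 for muscle fibres (median log2 fold change -0.50) and 3 of 6 for slow fibres (median -1.36). The 6 muscle fibre markers summed to 103930 ± 5853 CPM in fasted and 119165 ± 13730 CPM in fed controls. The part of these shifts in the fall of the members was not tested.

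In M-p110αKO muscle, fasting lowered 18 members and raised 1, against 9.91% and 11.6% of all genes tested. The median log2 fold change of the members was -0.32, with 68 of 75 below 0. The large subunit held 14 of the members that fell and the small subunit 4, with medians of -0.31 and -0.32. Mrpl30, a large-subunit protein with a bacterial counterpart, was read at 91.0, 112, 60.6 and 86.2 CPM in fed and at 42.5, 52.8 and 45.5 CPM in fasted M-p110αKO (log2 fold change -0.90 ± 0.17, adjusted p = 0.00124, edgeR). Mrpl1, whose bacterial counterpart forms the mobile stalk at the tRNA exit, was read at 28.4, 31.9, 28.6 and 27.4 CPM in fed and at 16.5, 18.7 and 17.8 CPM in fasted M-p110αKO (log2 fold change -0.72 ± 0.13, adjusted p = 0.000729, edgeR). Both genes were lower in every fasted than in every fed knockout library. In p110α controls the corresponding log2 fold changes were -0.32 ± 0.15 for Mrpl30 (adjusted p = 0.124, edgeR) and -0.01 ± 0.11 for Mrpl1 (adjusted p = 0.969, edgeR). Mrpl46 (-0.88), Mrpl18 (-0.86), Mrps34 (-0.85) and Mrps16 (-0.78) completed the large falls on the log2 scale. The gene that rose was Mrpl58, a peptidyl-tRNA hydrolase built into the large subunit, at 53.1, 54.6, 31.8 and 37.8 CPM in fed and 48.6, 72.2 and 102.3 CPM in fasted M-p110αKO (log2 fold change 0.75 ± 0.24, adjusted p = 0.0355, edgeR). Its groups overlapped, and the call was lost without any 1 of fed replicates 7 and 8 and fasted replicates 14 and 15. Over the comparison, leaving out 1 library gave 10 to 21 called members, with the fewest, 10, without fasted replicate 13 and 12 without fasted replicate 15. Mrps34 was not called without fasted replicate 14 (adjusted p = 0.0616, edgeR), and Mrps16 without replicate 6, 13 or 14 (adjusted p up to 0.09, edgeR). Summed Schwann cell markers were 48.7 ± 5.68 CPM in fed (SD, n = 4) and 28.1 ± 9.94 CPM in fasted M-p110αKO (SD, n = 3), erythroid markers 21.2 ± 9.88 CPM and 9.09 ± 3.84 CPM, macrophage markers 27.0 ± 8.20 CPM and 46.2 ± 29.9 CPM, and adipocyte markers 129.6 ± 10.9 CPM and 169.6 ± 33.5 CPM. Their part in the result was not tested.

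Whether the response to fasting differed between M-p110αKO and their controls was tested as an interaction, the fasting change in the knockout minus that in the control. No member was called, against 0.209% of all genes higher and 0.273% lower. Without adjustment, 4 members were higher and 3 lower at a p under 0.05. DESeq2 called 1 member, Mrpl1, and limma-voom called 0. The median interaction of the members was 0.05 on the log2 scale. Mrpl1 had the lowest p, at -0.71 ± 0.17 (adjusted p = 0.0713, edgeR), followed by Mrpl17 at 0.48 ± 0.16 (adjusted p = 0.181, edgeR).

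In controls of the p110β line, fasting lowered 17 members and raised 2, against 12.4% and 14.5% of 12249 genes tested. The median log2 fold change of the members was -0.27, with 64 of 75 below 0, and the median of all genes tested was -0.02. Of the large subunit 13 of 50 members fell and 2 rose, and of the small subunit 4 of 25 fell, with a median of -0.27 in either subunit. Mrpl48 (chr7:100545751-100608301), a large-subunit protein specific to mitochondria, was read at 39.8, 41.3 and 44.2 CPM in fed and at 23.1, 25.3 and 24.4 CPM in fasted controls (log2 fold change -0.77 ± 0.14, adjusted p = 0.000368, edgeR). Mrps28 was read at 41.0, 36.3 and 47.2 CPM in fed and at 27.7, 27.3 and 27.9 CPM in fasted controls (log2 fold change -0.58 ± 0.13, adjusted p = 0.00296, edgeR). Neither gene overlapped between the groups. Mrpl52 (-0.80), Mrpl42 (-0.72), Mrpl19 (-0.69) and Mrpl21 (-0.65) also fell by much on the log2 scale. Mrps30 rose from 23.5, 21.9 and 24.6 CPM in fed to 29.0, 36.8 and 32.2 CPM in fasted controls (log2 fold change 0.49 ± 0.13, adjusted p = 0.0103, edgeR). Mrpl9, a large-subunit protein with a bacterial counterpart, rose from 42.1, 43.5 and 42.9 CPM to 51.4, 51.7 and 53.7 CPM (log2 fold change 0.30 ± 0.11, adjusted p = 0.0482, edgeR). In both genes every fasted control was above every fed one. Fasted controls 23 and 24 were the libraries with high adipocyte markers. Without both, which leaves control 25 alone in its group and assumes that it varies like the other groups, 5 members fell and 0 rose, with a median of -0.31. These 5, Mrpl21, Mrpl42, Mrpl48, Mrps14 and Mrps15, were all among the 17, so the calls of Mrps28, Mrps30 and Mrpl9 were among those lost. Mrps30 also lost its call without replicate 24 alone (adjusted p = 0.0603, edgeR), and Mrpl9 without any 1 of the 6 libraries (adjusted p up to 0.123, edgeR) and without the filter on low counts. Mrpl52 also lost its call without replicate 16 or 23 (adjusted p up to 0.0689, edgeR), and Mrpl21 without replicate 16, 23 or 25 (adjusted p up to 0.0807, edgeR). The count of called members was 12 without fed control 18. Summed adipocyte markers were 130.2 ± 9.75 CPM in fed and 327.5 ± 136.2 CPM in fasted controls, fibroblast markers 407.4 ± 42.3 CPM and 321.1 ± 3.51 CPM, and endothelial markers 384.9 ± 76.3 CPM and 295.8 ± 43.8 CPM (SD, n = 3 each). All 4 adipocyte markers tested were called higher and 3 of 8 fibroblast markers lower, and their part in the result was not tested.

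In M-p110βKO muscle, fasting lowered 20 members and raised 6, against 18.9% and 19% of all genes tested. The median log2 fold change of the members was -0.24, with 56 of 75 below 0, while the median of all genes was -0.02. Mrps24 of the small subunit was read at 51.4, 36.5, 49.0 and 28.8 CPM in fed and at 18.0, 26.7, 20.6 and 24.0 CPM in fasted M-p110βKO (log2 fold change -0.89 ± 0.21, adjusted p = 0.00244, edgeR). Mrpl48 was read at 36.8, 34.8, 41.8 and 43.7 CPM in fed and at 22.2, 24.7, 29.7 and 20.2 CPM in fasted M-p110βKO (log2 fold change -0.69 ± 0.12, adjusted p = 0.00017, edgeR). In both genes every fasted library was below every fed one. Mrps25 fell by 0.74 ± 0.15 on the log2 scale (adjusted p = 0.000875, edgeR) and Mrps21 by 0.70 ± 0.22 (adjusted p = 0.0196, edgeR), the first of them with most of its exon bases shared with Nr2c2. Mrps30, which sits in the large subunit, rose from 21.5, 20.9, 26.6 and 24.3 CPM to 32.2, 33.8, 38.8 and 30.3 CPM (log2 fold change 0.53 ± 0.12, adjusted p = 0.00144, edgeR). Mrps9, a small-subunit protein with a bacterial counterpart, rose from 17.3, 18.5, 21.7 and 21.5 CPM to 26.5, 25.3, 24.8 and 28.7 CPM (log2 fold change 0.41 ± 0.10, adjusted p = 0.00478, edgeR). The other members that rose were Mrpl58 (0.86), Mrpl9 (0.36), Mrps31 (0.28) and Mrpl44 (0.28) on the log2 scale. Summed fibroblast markers were 479.2 ± 102.8 CPM in fed and 211.3 ± 34.0 CPM in fasted M-p110βKO (SD, n = 4 each), and endothelial markers 434.1 ± 19.2 CPM and 315.9 ± 55.3 CPM. Macrophage markers summed to 38.7 ± 10.2 CPM in fed and 20.6 ± 0.816 CPM in fasted M-p110βKO, and Schwann cell markers to 31.9 ± 2.07 CPM and 53.3 ± 20.4 CPM. The muscle fibre markers summed to 122587 ± 5162 CPM in fed and 106614 ± 7493 CPM in fasted M-p110βKO, without overlap. Of the tested markers, 7 of 8 for fibroblasts, 4 of 4 for macrophages and 2 of 6 for endothelium were called lower and 1 of 3 for Schwann cells higher, and their part in the result was not tested. Without fed replicate 22 the count of called members was 17. Mrps21 lost its call without replicate 21, 22 or 29 (adjusted p up to 0.0702, edgeR), Mrpl58 without 19, 21, 22 or 29 (adjusted p up to 0.089, edgeR), and Mrps31 (adjusted p up to 0.0908, edgeR) and Mrpl44 (adjusted p up to 0.12, edgeR) without any 1 of 6 libraries, 19, 20, 21, 27 and 28 in both cases, with 22 for Mrps31 and 29 for Mrpl44. After the correction for exon length and GC content, Mrps9 (adjusted p = 0.0707, edgeR), Mrps21 (adjusted p = 0.0579, edgeR) and Mrps31 (adjusted p = 0.0745, edgeR) were not called.

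The interaction in the p110β line called no member, against 0.0408% of all genes higher and 0.0653% lower, with 3 members higher and 1 lower at p under 0.05 before adjustment and 0 called by DESeq2 or limma-voom. The median interaction of the members was 0.05 on the log2 scale, and without fasted controls 23 and 24 it was 0.07 with 0 called. The lowest p belonged to Mrps9, at 0.64 ± 0.16 (adjusted p = 0.188, edgeR), and the next to Mrpl58, at 1.75 ± 0.46 (adjusted p = 0.19, edgeR).

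Setting the 4 fasting comparisons side by side, 7 members were lower in all of them, against 3.24% of the 12000 genes tested in both lines. These were Mrpl12, Mrpl13, Mrpl18, Mrpl42, Mrpl45, Mrpl48 and Mrpl51, all of the large subunit. A further 7 members were lower in 3 comparisons, 11 in 2 and 15 in 1, so that 40 of 75 were lower in at least 1, against 30.6% of all genes. Another 6 members were higher in at least 1 comparison, and 29 were called in none of the 4. Log2 fold changes were below 0 in all 4 comparisons for 47 members and above 0 in all 4 for 3, Mrpl9, Mrpl41 and Mrps10.

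The 7 recurrent members were chosen for being called in all 4 comparisons, and differences between the comparisons were tested only within a line, as the interaction. Mrpl42, specific to mitochondria, had log2 fold changes of -0.73 in p110α controls, -0.75 in M-p110αKO, -0.72 in p110β controls and -0.76 in M-p110βKO. Mrpl13, the counterpart of an early-assembling bacterial protein, had -0.91, -0.76, -0.64 and -0.59 in the same order. Mrpl12 had -0.96, -0.56, -0.59 and -0.60, and Mrpl48 had -0.81, -0.43, -0.77 and -0.69. The changes of Mrpl18 were -0.71, -0.86, -0.58 and -0.46. Mrpl51 had -0.59, -0.63, -0.43 and -0.51. The smallest changes were those of Mrpl45 (chr11:97315716-97329920), which helps to hold the ribosome at the inner membrane, at -0.47, -0.55, -0.39 and -0.31. Standard errors of these values ran from 0.11 to 0.22. In p110β controls, the calls of Mrpl12, Mrpl13, Mrpl18, Mrpl45 and Mrpl51 were lost without fasted controls 23 and 24. Leaving out a single library of p110β controls also ended the calls of Mrpl12 (18, 23 or 25), Mrpl13 (17, 18, 23 or 25), Mrpl45 (17, 18 or 24) and Mrpl51 (18, 23, 24 or 25), with adjusted p-values up to 0.133, 0.141, 0.118 and 0.168 in edgeR. In M-p110αKO it ended those of Mrpl12 (8, 13 or 15), Mrpl13 (6, 13 or 15) and Mrpl48 (6, 7, 8 or 13), with adjusted p-values up to 0.0814, 0.113 and 0.197. In M-p110βKO the same held for Mrpl13 (21, 22, 27 or 29) and Mrpl45 (22, 26, 27 or 29), with adjusted p-values up to 0.0686 and 0.0863. In M-p110βKO, Mrpl12 (adjusted p = 0.0533, edgeR) and Mrpl45 (adjusted p = 0.0901, edgeR) were not called after correcting for GC content and exon length.

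**Figure D3:**
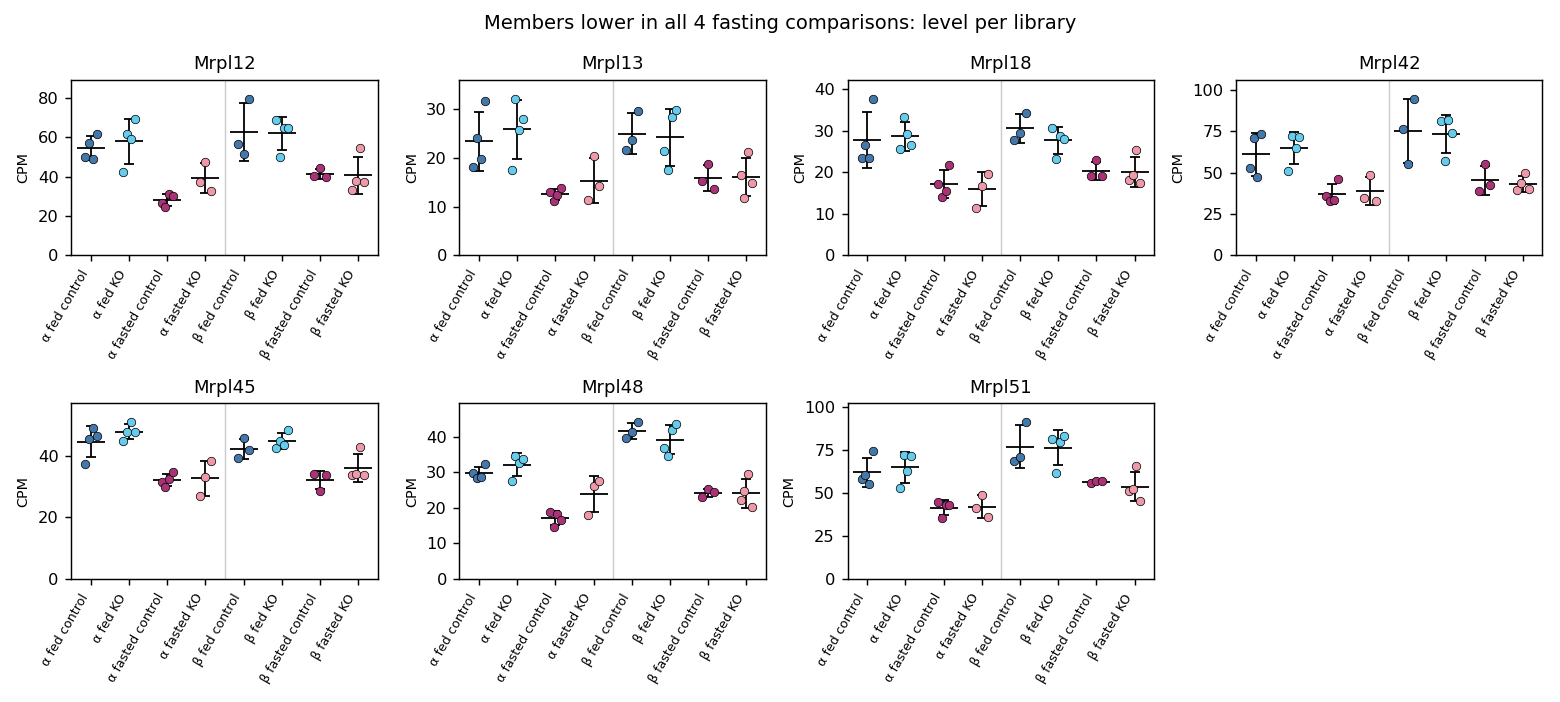
Each panel shows 1 of the 7 members lower in all 4 fasting comparisons, with the CPM of every library as points in the 8 groups and the group mean and SD in black. In the p110α line Mrpl12 sits at 48.9 to 61.8 in fed controls and 24.3 to 31.1 in fasted controls, and in the p110β line Mrpl48 sits at 39.8 to 44.2 in fed controls and 23.1 to 25.3 in fasted controls.

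Simple features of the genes were compared between the members that fell and the others, with no test. In p110α controls those that fell had a median GC content of 51.4% and a median exon length of 2064 bases, and the other 44 had 48.3% and 3044 bases. Their median level was 10.9 CPM per kb against 6.07 CPM per kb. In M-p110αKO the members that fell had a lower median GC content than the others, at 47.3% against 49.8%, and a median exon length of 2735.5 against 2533 bases. In p110β controls the medians were 50.1% against 49.4% and 2011 against 2583.5 bases, and in M-p110βKO 51.4% against 49.2% and 2118 against 2617 bases. The difference in p110α controls was therefore not seen in every fasting comparison. With log2 fold changes corrected for GC content and exon length across all genes, 30 members fell and 1 rose in p110α controls, with a median of -0.34, against 14.7% of all genes lower and 13.3% higher in the corrected fit. The members that fell were not all the same as without the correction. The calls of Mrpl21, Mrpl34, Mrpl43, Mrpl46, Mrps15, Mrps24, Mrps27, Mrps28 and Mrps34 were lost. Mrpl3, Mrpl15, Mrpl30, Mrpl33, Mrpl35, Mrpl37, Mrps25 and Mrps35 were called lower in their place. The corrected fit called 16 members lower in M-p110αKO, with a median of -0.23, against 9.56% of all genes. In p110β controls it called 14 lower, with a median of -0.18, against 11.9% of all genes. In M-p110βKO it called 13 of 75 lower, with a median of -0.14, a share close to the 16.3% of all genes. These medians are closer to 0 than without the correction, and the share of the falls that follows GC content or length was not tested further.

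Genotype in fed muscle was compared next. In the p110α line no member was called between fed M-p110αKO and fed controls, against 0.193% of all genes higher and 0.418% lower. Without adjustment, 2 members were higher and 0 lower at a p under 0.05, and DESeq2 and limma-voom called 0. The median log2 fold change of the members was 0.07, with 51 of 75 above 0, and with the GC and length correction it was 0.01, with 41 above 0. Mrps31 had the lowest p, at 22.3, 28.3, 19.7 and 25.7 CPM in controls and 26.2, 31.7, 32.5 and 29.6 CPM in M-p110αKO, groups that overlapped (log2 fold change 0.31 ± 0.12, adjusted p = 0.271, edgeR). Mrpl30 was next, at 67.5, 79.7, 69.1 and 60.7 CPM in controls and 91.0, 112, 60.6 and 86.2 CPM in M-p110αKO, and also overlapped (log2 fold change 0.34 ± 0.15, adjusted p = 0.399, edgeR). In the p110β line no member and no gene at all was called between fed M-p110βKO and fed controls (0% higher and 0% lower). No member was higher and 3 were lower at an unadjusted p under 0.05, DESeq2 and limma-voom called 0 members, and the median of the members was -0.01. Mrps9 had the lowest p, at 27.3, 25.7 and 24.8 CPM in controls and 17.3, 18.5, 21.7 and 21.5 CPM in M-p110βKO, groups that did not overlap (log2 fold change -0.38 ± 0.11, adjusted p = 0.281, edgeR). Mrpl58 was next, at 117, 244.4 and 49.9 CPM in controls and 74.7, 80.9, 80.5 and 58.1 CPM in M-p110βKO, groups that overlapped (log2 fold change -0.88 ± 0.32, adjusted p = 0.421, edgeR).

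In fasted muscle of the p110α line, 3 of 75 members were higher and 2 lower in M-p110αKO than in controls. These shares are close to the 3.02% higher and 3.51% lower among all genes tested, so the calls do not set the family apart. The median log2 fold change was 0.10, with 56 of 75 members above 0. All 5 called members belong to the large subunit, which holds 50 of the 75 members. This comparison uses the same fasted control libraries as the fasting comparison in p110α controls.

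Mrpl17 (chr7:105803206-105811099), next to the polypeptide exit of the large subunit in bacteria, was read at 14.8, 13.1, 15.7 and 15.8 CPM in fasted controls and at 19.7, 21.6 and 23.7 CPM in fasted M-p110αKO (log2 fold change 0.55 ± 0.12, adjusted p = 0.0129, edgeR). Mrpl33 (chr5:31596935-31664384), a small protein with a bacterial counterpart, was read at 16.9, 12.1, 15.5 and 17.9 CPM in controls and at 21.4, 31.8 and 27.5 CPM in M-p110αKO (log2 fold change 0.80 ± 0.20, adjusted p = 0.0268, edgeR). Mrpl43 (chr19:45004829-45006442), specific to mitochondria, was read at 24.0, 23.0, 24.0 and 21.4 CPM in controls and at 29.0, 32.9 and 33.2 CPM in M-p110αKO (log2 fold change 0.46 ± 0.11, adjusted p = 0.0228, edgeR). In all 3 genes every knockout library was above every control, and the fed M-p110αKO libraries, at 17.1 to 21.8, 22.3 to 35.7 and 28.0 to 34.1 CPM, overlapped the fasted ones. Mrpl1 (chr5:96209493-96266727) was read at 26.4, 25.8, 27.1 and 31.4 CPM in controls and at 16.5, 18.7 and 17.8 CPM in M-p110αKO (log2 fold change -0.64 ± 0.13, adjusted p = 0.0081, edgeR). Mrpl50 (chr4:49512596-49521093), specific to mitochondria, was read at 47.7, 46.4, 55.0 and 53.6 CPM in controls and at 38.9, 36.0 and 36.8 CPM in M-p110αKO (log2 fold change -0.44 ± 0.11, adjusted p = 0.0249, edgeR). Both genes were lower in every knockout library than in every control, and lower than in all fed libraries of the line.

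These 5 calls did not all hold under other settings. After correction for exon length and GC content, Mrpl17 (adjusted p = 0.00382, edgeR) and Mrpl33 (adjusted p = 0.0321, edgeR) were called, and Mrpl1 (adjusted p = 0.0639, edgeR), Mrpl43 (adjusted p = 0.133, edgeR) and Mrpl50 (adjusted p = 0.128, edgeR) were not. Mrpl48, not called without the correction, was then called higher (adjusted p = 0.0333, edgeR), so that 3 members were higher and 0 lower, against 1.39% and 1.47% of all genes. Without the filter on low counts Mrpl17 and Mrpl43 were not called, and Mrpl12 (adjusted p = 0.0467, edgeR) and Mrpl58 (adjusted p = 0.00396, edgeR) were. DESeq2 called Mrpl48 (adjusted p = 0.0273), Mrpl12 (adjusted p = 0.0461) and Mrpl4 (adjusted p = 0.0451) in addition. Mrpl1 was called with each library left out. Mrpl17 was not called without replicate 14 (adjusted p = 0.0522, edgeR), Mrpl33 without 9, 10, 11, 14 or 15 (up to 0.144), Mrpl43 without 10, 12, 14 or 15 (up to 0.0967) and Mrpl50 without 11, 12, 14 or 15 (up to 0.0972). Without fasted M-p110αKO replicate 14 Mrpl1 was the only member called, and without fasted replicate 15 there were 2 and without fasted control 10, 11 or 12 there were 3. Mrpl48 (log2 fold change 0.49 ± 0.15, adjusted p = 0.0513, edgeR) and Mrpl12 (0.49 ± 0.16, adjusted p = 0.0732, edgeR) missed the threshold. Mrpl48 was read at 18.9, 14.5, 18.3 and 16.7 CPM in fasted controls and at 18.1, 26.2 and 27.5 CPM in fasted M-p110αKO, so the groups overlapped, and Mrpl12 at 24.3 to 31.1 CPM and at 37.3, 47.6 and 32.8 CPM, which did not overlap. Between the fed controls of the lines, 0 of the 5 called members differed. Of all genes tested in both fits, 809 were called in fasted M-p110αKO and 2521 between the lines. Of the 809, 264 were called between the lines in the same direction, 6 in the opposite direction and 539 were not called. The 5 called members are too few to show whether they depart from this.

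**Figure D4:**
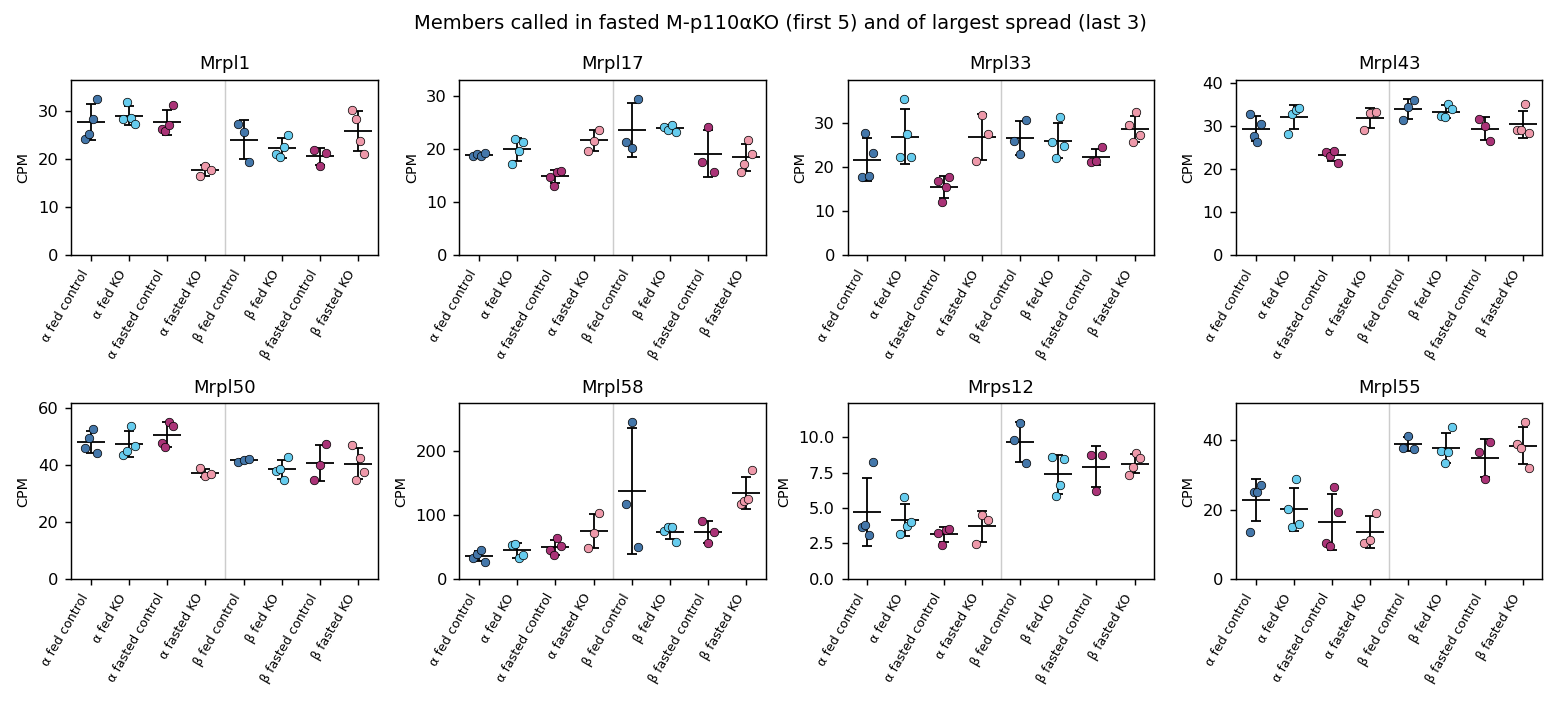
CPM of every library in the 8 groups, with the group mean and SD in black, for the 5 members called between fasted M-p110αKO and fasted controls (Mrpl1, Mrpl17, Mrpl33, Mrpl43 and Mrpl50) and for the 3 members whose group means spread most (Mrpl58, Mrps12 and Mrpl55). Mrpl1 sits at 16.5 to 18.7 in fasted M-p110αKO and at 25.8 to 31.4 in fasted controls, and Mrpl55 sits at 28.8 to 45.1 in the p110β line and at 9.50 to 28.8 in the p110α line.

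In fasted muscle of the p110β line, no member was called between M-p110βKO and controls, against 0.294% of all genes higher and 0.596% lower. Before adjustment, 5 members were higher and 1 lower at p under 0.05, DESeq2 and limma-voom called 0, and the median of the members was 0.03. Mrpl58 had the lowest p, at 90.2, 56.5 and 72.9 CPM in controls and 117.6, 121.4, 125.3 and 170.5 CPM in M-p110βKO, groups that did not overlap (log2 fold change 0.87 ± 0.33, adjusted p = 0.255, edgeR). Mrpl33 was next, at 0.36 ± 0.14 on the log2 scale (adjusted p = 0.257, edgeR). Without the adipocyte-rich fasted controls 23 and 24 no member was called either, and the median was 0.06.

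**Figure D5:**
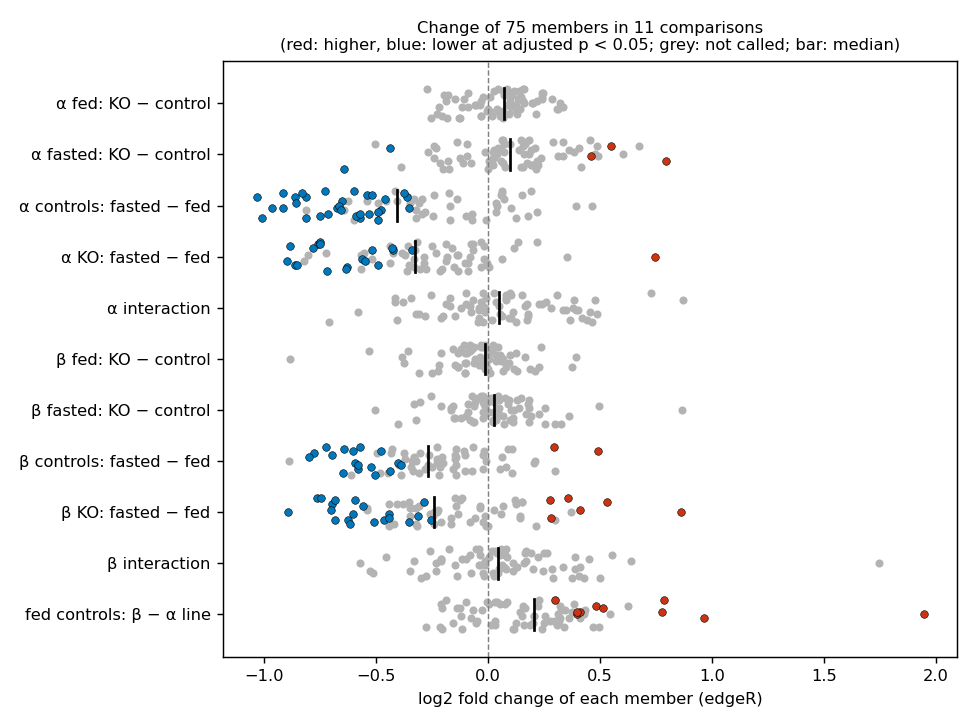
Each point is the log2 fold change of 1 member in 1 of the 11 comparisons, red where called higher, blue where called lower and grey where not called, with a black bar at the median of the 75 members. The medians of the 4 fasting comparisons lie between -0.40 and -0.24, and those of the 4 genotype comparisons between -0.01 and 0.10.

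The floxed controls also allowed the lines themselves to be compared. In fed controls, 10 members were higher and 0 lower in the p110β than in the p110α line, against 9.33% and 10.9% of 12760 genes tested, and no member was lower at an unadjusted p under 0.05 or by DESeq2 or limma-voom. The median log2 difference of the members was 0.20, with 57 of 75 above 0, and that of all genes was 0.02. Of these 10, 8 belong to the large and 2 to the small subunit. Mrpl58 (chr11:115403752-115412674) differed most. It was read at 33.4, 38.3, 45.2 and 26.0 CPM in p110α fed controls and at 117, 244.4 and 49.9 CPM in p110β fed controls (log2 difference 1.95 ± 0.32, adjusted p = 0.000134, edgeR). The p110β fed controls were far apart from each other, though each was above every p110α fed control. Mrps12 (chr7:28739641-28741820), a small-subunit protein of the decoding centre, was read at 3.67, 3.80, 3.12 and 8.26 CPM in the p110α and at 9.78, 11.0 and 8.16 CPM in the p110β line, with 1 p110α control, replicate 4, inside the range of the other group (log2 difference 0.96 ± 0.25, adjusted p = 0.00767, edgeR). Mrpl27, which reaches towards the peptidyl transferase centre, was read at 12.7, 16.0, 13.6 and 12.4 CPM and at 25.6, 27.8 and 17.5 CPM (log2 difference 0.79 ± 0.20, adjusted p = 0.00611, edgeR). Mrpl55 was read at 13.6, 25.1, 25.1 and 27.1 CPM and at 37.8, 41.2 and 37.6 CPM, without overlap (log2 difference 0.78 ± 0.26, adjusted p = 0.0359, edgeR).

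The other members called between the lines were Mrps18a, Mrpl48, Mrpl4, Mrpl10, Mrps9 and Mrpl9, with log2 differences from 0.51 for Mrps18a to 0.30 for Mrpl9. After correction for exon length and GC content, 4 members were higher and 2 lower, against 6.83% and 10.7% of all genes, with a median of 0.10, and of the 10 calls those of Mrpl48, Mrpl58 and Mrps9 held. Mrps12 (adjusted p = 0.0513, edgeR), Mrpl27 (adjusted p = 0.0672, edgeR) and Mrpl55 (adjusted p = 0.225, edgeR) were then not called. With all controls but 1, Mrpl55 was not called without 1, 3, 16, 17 or 18 (adjusted p up to 0.121, edgeR), Mrps18a without 3, 4, 16 or 18 (up to 0.241) and Mrpl48 without 18 (0.0605). Mrps9 was not called without 1, 2, 3, 16, 17 or 18 (adjusted p up to 0.146, edgeR), Mrpl9 without any but 2 (up to 0.133), Mrpl4 without 3, 4, 16, 17 or 18 (up to 0.0698) and Mrpl10 without 4, 16 or 17 (up to 0.11). Without the filter on low counts these 4 were not called. The count of called members was 4 without p110β fed control 18, 5 without 16, 17 or p110α fed control 3, and 17 without p110α fed control 4. Over all 8 groups, the SD of the group means on the log2 scale was 0.66 for Mrpl58, 0.65 for Mrpl55 and 0.63 for Mrps12. Mrpl55 was read at 9.50 to 28.8 CPM in the 15 libraries of the p110α line and at 28.8 to 45.1 CPM in the 14 of the p110β line. At the other end, Mrps10 (0.074), Mrps5 (0.077) and Mrpl44 (0.10) had the steadiest group means. Summed endothelial markers were 259.4 ± 24.6 CPM in p110α (SD, n = 4) and 384.9 ± 76.3 CPM in p110β fed controls (SD, n = 3). In the same order, Schwann cell markers were 43.9 ± 5.57 and 71.6 ± 18.9 CPM, and macrophage markers 16.3 ± 2.69 and 25.9 ± 8.38 CPM. Slow-fibre markers were 53.3 ± 20.7 and 32.8 ± 8.01 CPM. The part of these markers in the line differences was not tested.

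Mrps18 has 3 copies in mammals, whose products occupy different places in the ribosome. Mrps18c, the copy nearest to the bacterial protein, had log2 fold changes on fasting of -0.46, -0.55, -0.33 and -0.54 in p110α controls, M-p110αKO, p110β controls and M-p110βKO, none of which was called. Mrps18b had 0.18, -0.03, 0.30 and -0.21, none of which was called either. Mrps18a, the copy in the large subunit, had -0.33, -0.06, -0.10 and -0.55, and only the last was called (adjusted p = 0.00722, edgeR). Differences between the copies were not tested.

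Members varied together to a moderate degree. Over the 2775 pairs of members, the median Pearson correlation of log2 CPM across the 29 libraries was 0.36, and 80.1% of pairs were above 0. Computed on deviations from the group means, the median was 0.25. These values are descriptions, since the pairs share libraries, depth and scaling.

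Genes that act with the mitochondrial ribosome were described from lists of related function, which were not tested as sets. Of all genes tested, 14.7% fell and 15.4% rose on fasting in p110α controls, and 9.91% and 11.6% in M-p110αKO. The shares were 12.4% and 14.5% in p110β controls and 18.9% and 19% in M-p110βKO, and the counts below stand beside these. Of 5 ribosomal proteins with other names, Chchd1 of the small subunit fell in all 4 fasting comparisons (log2 fold changes -0.75, -1.13, -0.46 and -0.38 in p110α controls, M-p110αKO, p110β controls and M-p110βKO). Aurkaip1 fell in M-p110αKO (-0.61) and p110β controls (-0.57), Gadd45gip1 fell in p110β controls (-0.68), and Dap3 and Ptcd3 were not called in any of the 4. Among 23 assembly factors, 4 fell and 2 rose in p110α controls, 1 fell and 4 rose in M-p110αKO, 3 fell and 0 rose in p110β controls, and 2 fell and 1 rose in M-p110βKO. The rRNA methyltransferase Mrm2 fell in each (-0.92, -0.88, -1.12 and -1.04). Of 15 translation factors, 3, 2, 2 and 2 fell and 0, 0, 1 and 2 rose in that order. Of 20 genes for charging mitochondrial tRNAs, 3, 0, 2 and 2 fell and 0, 0, 2 and 3 rose. Median log2 fold changes of these 3 lists lay between -0.21 and 0.09, while those of the 75 members lay between -0.40 and -0.24.

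Nuclear regulators of mitochondrial content moved in both directions on fasting. The shares of all genes that fell or rose are those given with the lists above. Of 9 such genes, 4 rose and 2 fell in p110α controls, 4 rose and 1 fell in M-p110αKO, and 5 rose and 2 fell in p110β controls and in M-p110βKO. Nrf1 rose in all 4 (log2 fold changes 0.40, 0.47, 0.54 and 0.36). Gabpa, the DNA-binding part of the GA-binding protein, rose in 3, with 0.68 in p110α controls, 0.44 in M-p110αKO and 0.54 in M-p110βKO. Yy1 rose in p110α controls (0.48), p110β controls (0.48) and M-p110βKO (0.68). Esrra, a nuclear receptor that acts with the PGC-1 coactivators, fell in all 4 (-0.96, -0.35, -0.48 and -0.65), and the coactivator Ppargc1b fell in p110α controls (-0.96), p110β controls (-1.45) and M-p110βKO (-1.31). The coactivator Ppargc1a rose in p110β controls (0.93) and M-p110βKO (0.58). Of 10 genes of mitochondrial DNA expression, 1 rose and 0 fell in p110α controls, 1 rose and 1 fell in M-p110αKO, 2 rose and 1 fell in p110β controls and 1 rose and 0 fell in M-p110βKO.

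In fasted M-p110αKO against fasted controls, the same lists held the assembly factors Trub2 (log2 fold change 0.66 ± 0.11, adjusted p = 0.00365, edgeR) and Mterf4 (0.76 ± 0.20, adjusted p = 0.0329, edgeR), the tRNA-charging genes Qrsl1 (0.60) and Sars2 (0.73), the elongation factor Tsfm (0.50) and the regulator Esrra (0.57), all higher. Of all genes tested in this comparison, 3.02% were higher and 3.51% lower. Both mitochondrial rRNAs were lower in fasted M-p110αKO, mt-Rnr1 of the small subunit by -1.35 ± 0.25 (adjusted p = 0.00546, edgeR) and mt-Rnr2 of the large subunit by -0.98 ± 0.18 (adjusted p = 0.00594, edgeR). The rRNAs were also called in the interaction of the p110α line, at -1.64 ± 0.33 for mt-Rnr1 (adjusted p = 0.0379, edgeR) and -1.26 ± 0.25 for mt-Rnr2 (adjusted p = 0.0359, edgeR). After correction for exon length and GC content, this interaction called 1 gene lower among 12433. At least 1 of the 2 rRNA calls was therefore lost. The interaction called 26 genes higher and 34 lower with all libraries, but 2 genes without replicate 1 and 74 without replicate 15. Whether the rRNAs were among those genes was not examined. Summed, the rRNAs stood at 6585 ± 1958 CPM in fed and 9256 ± 1756 CPM in fasted p110α controls (SD, n = 4 each). M-p110αKO had 8008 ± 1146 CPM when fed (SD, n = 4) and 4325 ± 317 CPM when fasted (SD, n = 3). Fasted p110β controls had 6511 ± 2282 CPM (SD, n = 3) and fasted M-p110βKO, higher on average, 10875 ± 2682 CPM (SD, n = 4), with overlap. On fasting, 1 of the 2 rRNAs was called higher and 0 lower in p110α controls, and 2 of 2 were called lower in M-p110αKO (median log2 fold change -0.89). The libraries were made with an mRNA kit, which does not aim at rRNA. Of 13 mitochondrially encoded mRNAs, 0 were higher and 2 lower in fasted M-p110αKO, mt-Nd4 (-0.91) and mt-Nd6 (-0.42). In fed M-p110αKO the only gene of these lists that was called was C1qbp, a matrix protein that binds the ribosome, which was higher (0.46 ± 0.09, adjusted p = 0.0289, edgeR). Of all genes, 0.193% were higher and 0.418% lower in fed M-p110αKO.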

How the data were processed

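The authors extracted RNA with Trizol, made libraries with an NEBNext mRNA kit and deposited a table of raw read counts per gene for 29 mouse muscle samples. The labels name STAR, featureCounts and GRCm38 in the submitters' processing notes, with versions not given in the sources used here. Ensembl identifiers were matched to symbols and positions in GENCODE annotation of GRCm38 (47310 of 48023 genes). Levels are CPM scaled by TMM over all libraries.

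Tests used edgeR 4.0.16 (quasi-likelihood, TMM, filterByExpr with a minimum count of 10), fitted per line with 1 coefficient per group, on 15 and 14 libraries, and over all 29 for the contrast between lines. P-values were two-sided and adjusted by Benjamini-Hochberg over all genes tested. Alternatives were DESeq2 1.42.0 and its size factors, limma-voom 3.58.1, no filter beyond 1 read, correction for exon length and GC content, and leaving out each library. Leaving out fasted p110β controls 23 and 24 together was chosen after seeing the data. The scripts were tested on simulated data. The 39 pairs of libraries within groups differed by more than sampling noise (chi-square per degree of freedom 3.92 to 31.0). Nothing says whether replicates differ beyond being separate samples, so p-values measure the spread between these samples.

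The members and lists were chosen with earlier results of these data known. Genes named in the text were, per comparison, up to 5 called members with the largest rise and the largest fall and the 2 with the lowest p, the extremes of level and spread, and members of known place, and values of other genes are named where a count turns on them.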

Additional observations from a re-analysis of the deposited data

Results flagged for a closer look

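Of 130 values tested in groups of 4 libraries by Dixon's criterion, 8 had a highest or lowest library far from the other 3, where chance gives about 1 in 20. In fasted M-p110βKO, replicate 28 was high in the summed CPM of the members, at 2121 against 1831 to 1865 in the others, in Mrpl45, at 42.8 CPM against 33.6 to 34.2, and in Mrpl43, at 35.0 CPM against 28.2 to 29.1. In the same group replicate 29 was high in Mrpl58, at 170.5 CPM against 117.6 to 125.3. In fasted p110α controls, replicate 10 was low in Mrpl51, at 35.1 CPM against 43.1 to 44.4, and replicate 12 was high in Mrps31, at 29.7 CPM against 27.5 to 27.8. In fed p110α controls, replicate 4 was high in Mrps12, at 8.26 CPM against 3.12 to 3.80, and replicate 1 was low in Mrpl55, at 13.6 CPM against 25.1 to 27.1.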

How the results depend on the processing

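No call reversed under any alternative run. Of 110 calls of members over all comparisons, 55 held under every alternative setting, 49 with each library left out and 75 after correction for exon length and GC content. The count of called members in fasted M-p110αKO against controls (5) was 8 by DESeq2, 3 with the GC and length correction and 1 to 6 with 1 library left out. In fasting, it was 22 to 34 with 1 library left out in p110α controls (31), 10 to 21 in M-p110αKO (19), 12 to 16 in p110β controls (19), where it was 5 without fasted controls 23 and 24, and 17 to 30 in M-p110βKO (26). For the interaction in the p110α line (0) it was 1 by DESeq2, 1 without the filter on low counts and 0 to 1 with 1 library left out (1 without replicate 4). For the interaction in the p110β line (0) it was 1 without the filter and 0 to 1 with 1 library left out (1 without replicate 18). Without the filter it was 1 in fed M-p110βKO (0) and 2 in fasted M-p110βKO (0). Mrpl58 was the gene called without the filter in fed M-p110βKO and in the p110β interaction (adjusted p = 1.61e-17, edgeR, against 0.19 with the filter), and the cause was not tested. Between the lines (10) it was 6 with the GC and length correction and 4 to 17 with 1 library left out. Without TMM the summed CPM of p110β fasted controls averaged 1851. No paired analysis was possible because replicate numbers run through all samples and no number occurs in more than 1 group. Precision is limited by groups of 3 or 4 libraries, and members under 10 CPM rest on few reads.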
